A study of Homo sapiens with 5 samples.

Results

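Bone morphogenetic protein (BMP) response genes and regulators of the pathway were followed in KGN cells, an established cell line grown from a human granulosa cell tumour. The 9 genes were ID1, ID2, ID3, ID4, SMAD6, SMAD7, BAMBI, GREM1 and TGFB2. They were taken by gene symbol from a table of 35453 gene names, with the 40 transcripts listed under them summed per gene. All 9 had at least 100 scaled counts in every library, so the count minimum removed none of them.

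The study set activators of separate signalling pathways beside the hormone that granulosa cells respond to. Treatment lasted 24 h, in medium with charcoal-stripped serum. Every group including the control carried 100 nmol/L androstenedione, the substrate of oestrogen synthesis. The FSH group had follicle-stimulating hormone at 100 ng/mL. The FSK group had forskolin, an agonist of adenylate cyclase that raises cAMP and so turns on protein kinase A (PKA). The SC79 group had 4 µg/mL of SC79, an activator of AKT, also called protein kinase B (PKB). The PMA group had phorbol myristate acetate, a phorbol ester that turns on protein kinase C (PKC). The control had the ethanol vehicle per the protocol, although its title calls it untreated. Labels give FSK as 10 and PMA as 0.1 mmol/L, whereas the treatment protocol gives the same numbers after a symbol that stands for micro, so the dose unit is uncertain. Each group was 1 library of polyadenylated RNA, made from equal amounts of RNA of 3 cultures grown in 3 different weeks. There is therefore no replicate error, no test was run, and every interval covers counting error only.

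Library totals lay between 50218950 estimated counts for SC79 and 58811821 for control. Of 7 granulosa cell markers, FOXL2, NR5A1 and GATA4 had 4684 scaled counts or more in every library, and FOXL2 lay between 5458 for PMA and 10392 for SC79. CYP19A1 lay between 902 for control and 27444 for FSK. The other markers were low in some libraries, with INHA between 61.5 for control and 922 for FSK, AMHR2 between 15.8 for PMA and 219.7 for FSK, and the FSH receptor between 36.6 for PMA and 132 for FSK. Summed theca markers stayed between 6.31 and 14.7 scaled counts and summed oocyte markers between 30.5 and 45.0. The PMA library had 2178 scaled counts of CD68, against 791 in control, while PTPRC, the other immune marker, had 37.6 with PMA and 37.7 in control. It had 648 of PECAM1, against 109 in control, while the defining endothelial marker CDH5 was at 1.98 scaled counts with PMA and 0 in control. The part of these shifts in the PMA results was not tested.

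BMPs bind a pair of receptor kinases at the cell surface, which phosphorylate SMAD1, SMAD5 and SMAD9, and these enter the nucleus with SMAD4 and switch on target genes. The 4 ID genes are the best known targets. Their proteins bind the ubiquitous basic helix-loop-helix E proteins and keep them from DNA. SMAD6, SMAD7 and BAMBI are induced by the pathway and limit it in turn, GREM1 encodes a secreted protein that traps BMPs, and TGFB2 encodes a ligand of the related TGF-beta receptors. In the ovarian follicle, BMPs from the oocyte and somatic cells are known from work in rodents and sheep to restrain the progesterone response of granulosa cells to FSH.

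The 4 genes that lay at least 2-fold from control in a treatment were ID2, ID4, GREM1 and TGFB2, and the 250 bases before their RefSeq start sites are shown so that motifs can be read against the levels below. Sequences are from RefSeq on GRCh38.p14 and run 5′ to 3′ on the plus strand, which is the strand of all 4 genes. The windows are chr2:8681806-8682055 for ID2, chr6:19837120-19837369 for ID4, chr15:32717754-32718003 for GREM1 and chr1:218345086-218345335 for TGFB2. Capitals mark an E-box (CANNTG, the site that E proteins bind) in ID2, ID4 and TGFB2, the GC-rich element GGCGCC described in BMP-responsive genes in GREM1, and the cAMP response element core TGACG on the opposite strand in TGFB2.
ID2: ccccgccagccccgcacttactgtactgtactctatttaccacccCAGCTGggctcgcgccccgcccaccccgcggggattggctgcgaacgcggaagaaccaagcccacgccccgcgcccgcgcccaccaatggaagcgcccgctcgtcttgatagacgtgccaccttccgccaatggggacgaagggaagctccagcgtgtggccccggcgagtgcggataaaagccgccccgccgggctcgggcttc
ID4: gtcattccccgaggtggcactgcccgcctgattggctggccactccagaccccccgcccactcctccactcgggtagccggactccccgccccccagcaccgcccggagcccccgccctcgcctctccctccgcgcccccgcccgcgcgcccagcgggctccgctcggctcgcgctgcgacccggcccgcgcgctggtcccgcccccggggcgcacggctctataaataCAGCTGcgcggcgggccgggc
GREM1: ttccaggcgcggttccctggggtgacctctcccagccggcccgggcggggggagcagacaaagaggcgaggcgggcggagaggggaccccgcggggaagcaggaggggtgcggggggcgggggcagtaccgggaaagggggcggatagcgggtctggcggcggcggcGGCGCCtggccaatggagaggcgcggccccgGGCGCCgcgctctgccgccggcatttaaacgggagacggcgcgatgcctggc
TGFB2: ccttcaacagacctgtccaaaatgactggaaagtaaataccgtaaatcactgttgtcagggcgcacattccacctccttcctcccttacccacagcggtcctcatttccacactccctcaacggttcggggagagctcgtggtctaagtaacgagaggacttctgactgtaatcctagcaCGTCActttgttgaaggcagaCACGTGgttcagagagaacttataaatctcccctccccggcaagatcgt

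Counted from the start site, the E-box lay at -205 to -200 in ID2 and at -21 to -16 in ID4, and both read CAGCTG, a spelling that is the same on both strands. GGCGCC occurred at -83 to -78 and at -52 to -47 in the GREM1 window shown. RefSeq has another GREM1 start at chr15:32718484, and its window held 0 copies of GGCGCC. In TGFB2 the core TGACG lay at -70 to -66 and the E-box at -49 to -44. Across 27305 RefSeq promoters searched on both strands in windows of the same length, CANNTG was found in 62.2%, TGACG in 21.7% and GGCGCC in 16.1%. The full cAMP response element TGACGTCA was found in 1.77% of promoters and the AP-1 site TGANTCA, which phorbol esters are known to act through, in 6.60%. None of the windows of the 9 genes held either of these spellings. BAMBI had 3 copies of GGCGCC, and SMAD6 had the SMAD palindrome GTCTAGAC at -12 to -5, a spelling found in 0.176% of promoters. TGACG, which lies within TGACGTCA, was also present in ID3. A match is a description of letters in the window and not a bound site. The RefSeq start of ID2 lies 73 bases after the start of its most abundant transcript, and that of TGFB2 lies 899 bases before. Relative to the RefSeq start, the most abundant transcript began at -293 in ID3 and at -179 in BAMBI. Relative to the RefSeq starts of SMAD7, it began at -1087, -2719 and -9245. The ID3 and SMAD7 windows thus lay wholly after the start of that transcript, and the bases before it were not searched. For 7 of the 9 genes, a window ran into an annotated transcript.

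Scaled counts below are estimated counts divided by a library factor, log2 ratios carry a pseudocount of 1 scaled count, and brackets give exact 95% counting intervals of the fold. A gene was counted as different at 2-fold or more when the higher library had 100 or more scaled counts. With FSK, 3 of the 9 genes, ID2, ID4 and GREM1, were at least 2-fold higher than control and 1, TGFB2, was at least 2-fold lower. Of the 12610 genes compared, 4.13% were called higher and 5.43% called lower. The members' median log2 ratio was 0.63, and that of all genes compared was 0.01. With PMA, 1 gene, GREM1, was at least 2-fold higher and 2, ID4 and TGFB2, were at least 2-fold lower, where 3.64% and 3.62% of 12648 genes were. The members' median log2 ratio was -0.54, and that of all genes compared was -0.01. The 4 comparisons share the control library, and the members were chosen with earlier results in view, so these counts describe the members and are not evidence that the list stands apart.

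With FSH, 0 of the 9 genes lay at least 2-fold from control, and 0.409% of the 12473 genes compared did. All 9 were within 1.2-fold of control, as were 93.7% of all genes compared, and the median log2 ratio of the members was 0.00. The log2 ratios ran from -0.11 for TGFB2 to 0.18 for ID4. With SC79, again 0 of 9 lay at least 2-fold from control, where 0.264% of 12484 genes did. ID2 was the exception to the 1.2-fold range with SC79, at 1.22-fold (1.12 to 1.33), a log2 ratio of 0.29 that was 0.01 on the authors' normalized signal. The median log2 ratio of all genes with SC79 was -0.28 on that signal. For 6 of the 9 genes, all but ID2, ID4 and TGFB2, the FSH or SC79 ratio turned sign under another setting, so no direction is given for them there. For ID1, ID3 and BAMBI the sign turned only on the authors' normalized signal.

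ID proteins act as dominant-negative partners of E proteins. ID2 (ENSG00000115738, chr2:8678845-8684453, plus strand of GRCh38) had 995 scaled counts with FSH, 4075 with FSK, 1079 with SC79, 671 with PMA and 885 in control. The FSK library stood apart from the other 4, among which levels spanned 671 to 1079. The fold of FSK over control was 4.60 (4.29 to 4.95), a log2 ratio of 2.20, and 0.960% of the 12610 genes compared had a higher ratio. With PMA the log2 ratio to control was -0.40. In this bulk RNA, fewer cells with a transcript and less of it per cell cannot be told apart.

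ID4 (ENSG00000172201, chr6:19837386-19840684, plus strand) had 1175 scaled counts with FSH, 2252 with FSK, 974 with SC79, 419 with PMA and 1035 in control. It was highest with FSK and lowest with PMA, on either side of the other 3 libraries. The fold over control was 2.18 (2.02 to 2.34) with FSK and 0.405 (0.361 to 0.453) with PMA, log2 ratios of 1.12 and -1.30. The FSK ratio was 0.95 on the authors' normalized signal, under 2-fold. On that signal the median log2 ratio of all genes with FSK was -0.16.

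ID1 (ENSG00000125968, chr20:31605283-31606515, plus strand) had 657 scaled counts with FSH, 984 with FSK, 582 with SC79, 785 with PMA and 597 in control. Both FSK and PMA were above control, at 1.65-fold (1.49 to 1.83) and 1.32-fold (1.18 to 1.46), and neither reached 2-fold. ID1 was the only ID gene of the 4 whose scaled count was above control with PMA, a direction kept under all 8 settings tried for the ratios, where its log2 ratio lay between 0.16 and 0.46.

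ID3 (ENSG00000117318, chr1:23557918-23559794, minus strand) had 6339 scaled counts with FSH, 7746 with FSK, 6609 with SC79, 4349 with PMA and 6324 in control. It was the most abundant ID gene per kilobase in every library, and its ratio to control with FSK was the smallest of the family. The fold over control was 1.22 (1.19 to 1.27) with FSK and 0.688 (0.662 to 0.714) with PMA.

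**Figure D1:**
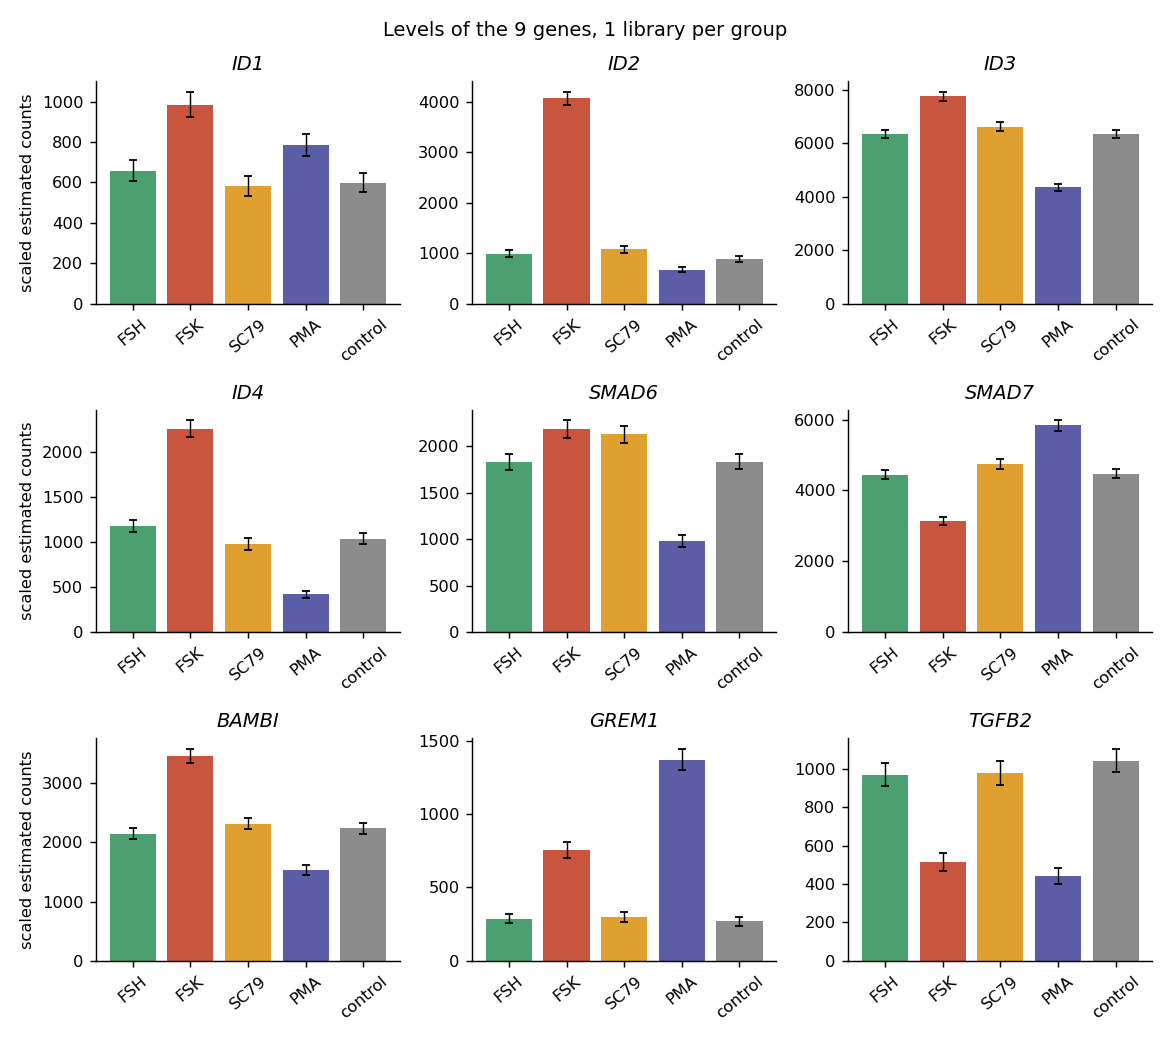
Scaled estimated counts (y axis, linear from 0, a separate scale for each gene) of the 9 genes in the FSH, FSK, SC79, PMA and control libraries, 1 library per group, with bars for the value and whiskers for the exact 95% counting interval. ID2 and ID4 are highest with FSK, at 4075 and 2252, and GREM1 is highest with PMA, at 1371.

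The make-up of the ID family differed between libraries. The 4 genes summed to 9166 scaled counts with FSH, 15057 with FSK, 9244 with SC79, 6224 with PMA and 8841 in control. ID2 supplied 27.1% (26.3 to 27.8) of the estimated counts of the family with FSK, against 10.0% (9.42 to 10.6) in control. The share of ID3 was 51.4% with FSK, against 71.5% in control. With PMA the share of ID1 was 12.6% (11.8 to 13.5), against 6.75% (6.26 to 7.27) in control, and that of ID4 was 6.73% (6.12 to 7.37), against 11.7% (11.1 to 12.4) in control. These shares are of counts and are not corrected for length. Per kilobase of transcript, the order of levels in control was ID3 at 5197, BAMBI at 1192, SMAD7 at 1111, ID2 at 737, ID1 at 593, SMAD6 at 576, ID4 at 441 and TGFB2 at 255 scaled counts per kilobase. With FSK the level of ID2 was 3249 scaled counts per kilobase, the second in order after ID3. GREM1 was left out of this order because its most abundant transcript has no length in the annotation used. Spread over samples is unknown, so whether neighbours in this order differ beyond it is unknown too.

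SMAD6 and SMAD7 encode inhibitory SMADs, which bind activated receptors and block the receptor-regulated SMADs. SMAD6 acts mainly on BMP signals and SMAD7 on both BMP and TGF-beta signals. SMAD6 (ENSG00000137834, chr15:66702228-66782848, plus strand) had 1830.1 scaled counts with FSH, 2186 with FSK, 2128 with SC79, 978 with PMA and 1833 in control. The PMA library was below the other 4. Its fold over control was 0.534 (0.494 to 0.576), a log2 ratio of -0.91, short of 2-fold, and on the authors' normalized signal it was past 2-fold at -1.14. All genes together had a median log2 ratio of -0.25 with PMA on that signal.

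SMAD7 (ENSG00000101665, chr18:48919853-48952052, minus strand) had 4443 scaled counts with FSH, 3145 with FSK, 4751 with SC79, 5834 with PMA and 4467 in control. Its order across FSK and PMA was the opposite of that of SMAD6, with FSK lowest and PMA highest. The fold over control was 0.704 (0.673 to 0.737) with FSK and 1.31 (1.26 to 1.36) with PMA. SMAD6 made up 41.0% (39.6 to 42.4) of the estimated counts of the pair with FSK and 14.4% (13.5 to 15.2) with PMA, against 29.1% (28.0 to 30.2) in control.

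BAMBI (ENSG00000095739, chr10:28677342-28682939, plus strand) encodes a transmembrane pseudoreceptor that resembles a type I receptor without its kinase. Its level was 2150.0 scaled counts with FSH, 3468 with FSK, 2316 with SC79, 1531 with PMA and 2238 in control. As for ID4, FSK was the highest library and PMA the lowest, at 1.55-fold (1.47 to 1.63) and 0.684-fold (0.642 to 0.730) of control, and neither reached 2-fold.

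GREM1 (ENSG00000166923, chr15:32717974-32745107, plus strand) encodes gremlin 1, which in mouse cumulus granulosa cells is known as a target of oocyte GDF9. It had 286 scaled counts with FSH, 754 with FSK, 296 with SC79, 1371 with PMA and 267 in control. FSK and PMA were both above the other 3 libraries, and PMA was the higher of them. The fold over control was 2.82 (2.46 to 3.25) with FSK and 5.13 (4.52 to 5.85) with PMA, log2 ratios of 1.49 and 2.35. With PMA 0.830% of the 12648 genes compared had a higher ratio. GREM1 was the only one of the 9 genes at least 2-fold higher in both of these libraries.

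TGFB2 (ENSG00000092969, chr1:218346235-218444619, plus strand) had 971 scaled counts with FSH, 515 with FSK, 978 with SC79, 442 with PMA and 1045 in control. FSK and PMA were both below the other 3 libraries. The fold over control was 0.493 (0.442 to 0.548) with FSK, an interval that spans the 2-fold line, and 0.423 (0.379 to 0.473) with PMA. Of its sequence, 74.1% of 31-base words were found in no other annotated gene, and the rest is shared with TGFB2-OT1, which lies on the same strand and has no row in the tables, so reads of it could be counted as TGFB2.

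**Figure D2:**
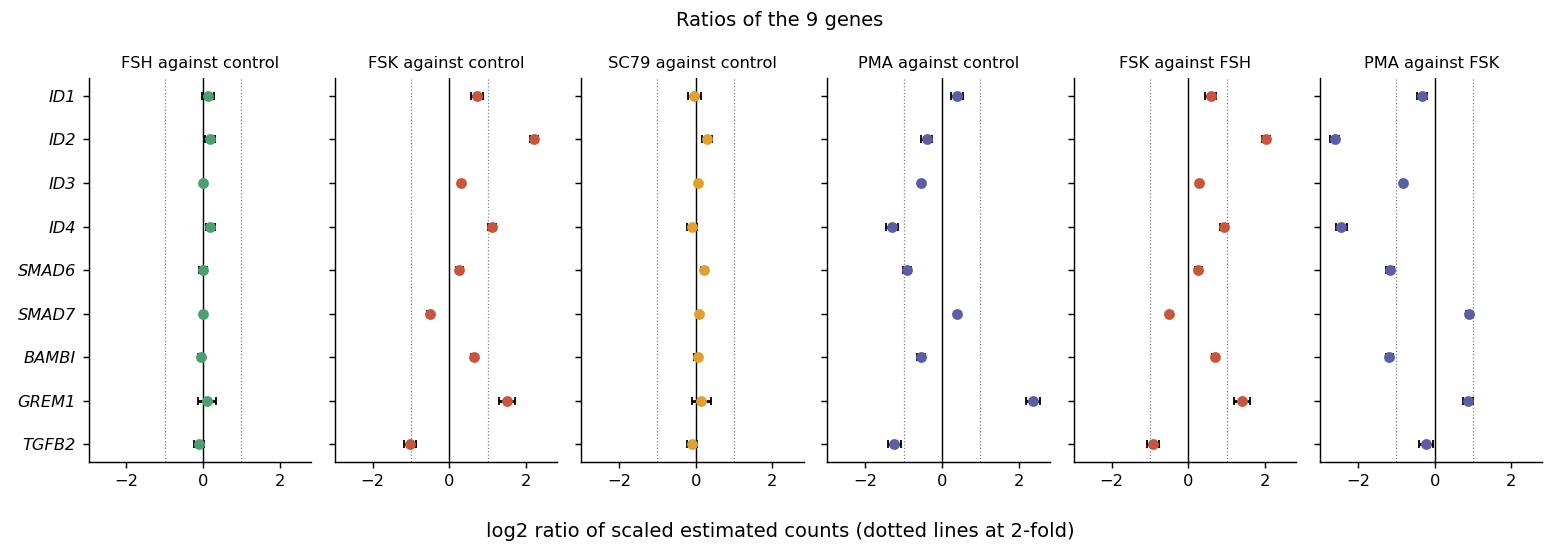
Log2 ratios of scaled estimated counts (x axis) for the 9 genes (y axis) in 6 comparisons, with points for the ratio, whiskers for the exact 95% counting interval and dotted lines at 2-fold. Points are drawn without the pseudocount. Those for FSH and SC79 against control lie between -0.11 and 0.29. For PMA against FSK, ID2 and ID4 lie at folds of 0.165 and 0.186.

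The treatments were also set against each other without the control library. FSK stimulates the cAMP pathway that the FSH receptor uses, and 2 of the 9 genes were at least 2-fold higher with FSK than with FSH, where 3.31% of 12609 genes were. They were ID2, with 4075 scaled counts for FSK against 995 for FSH, and GREM1, with 754 for FSK against 286 for FSH. ID4 was 1.92-fold (1.78 to 2.06) higher with FSK than with FSH. No member was at least 2-fold lower, where 4.52% of genes were. TGFB2 came closest, at 0.530-fold (0.475 to 0.592) with FSK of its level with FSH.

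Between PMA and FSK, 4 of the 9 genes were at least 2-fold lower with PMA, where 5.13% of 12696 genes were. ID2 was 6.07-fold (5.60 to 6.60) lower with PMA than with FSK, and ID4 was 5.38-fold (4.84 to 5.98) lower. Of all genes compared, 0.929% had a lower ratio than ID2 and 1.09% a lower one than ID4. SMAD6 was 2.24-fold (2.07 to 2.41) lower and BAMBI 2.26-fold (2.13 to 2.41) lower. No member was at least 2-fold higher with PMA than with FSK, where 5.8% of genes were. SMAD7 was 1.85-fold (1.77 to 1.94) higher with PMA than with FSK, and GREM1 1.82-fold (1.66 to 1.99) higher. TGFB2, low in both libraries, had 442 scaled counts with PMA and 515 with FSK.

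The transcripts behind each gene sum were examined next. ID2 was carried mainly by ID2-203, which held 89.7% (88.7 to 90.6) of the gene with FSK and 91.6% (89.2 to 93.6) with PMA, against 80.9% (78.3 to 83.3) in control. The shorter ID2-202 held 6.76% (5.98 to 7.58) with FSK and 3.11% (1.93 to 4.70) with PMA, against 12.2% (10.2 to 14.5) in control. ID4 had a single transcript. ID1-202, SMAD7-201 and BAMBI-201 held between 92.0% and 100% of their genes across the libraries. Strand use is not stated, and ID2, ID4 and GREM1 each overlap an annotated noncoding gene on the opposite strand that has no row in the tables.

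The most abundant GREM1 transcript, ENST00000300177, held 66.3% (62.7 to 69.7) of the gene with FSK and 67.3% (64.7 to 69.7) with PMA, and 46.2% (40.3 to 52.1) with FSH and 42.2% (36.3 to 48.2) with SC79, against 58.5% (52.5 to 64.1) in control. In scaled counts it was 132 with FSH, 499.6 with FSK, 125.2 with SC79 and 922 with PMA, against 156 in control. GREM1-203 held 4.28% (3.26 to 5.46) with PMA, against 14.5% (10.6 to 19.0) in control, and an entry with the same values in every library held as much again. Entries with the same values as another of the same gene numbered 4 of 8 for GREM1 and 6 of 6 for ID3. Counting such entries once left GREM1 at least 2-fold higher with FSK and with PMA.

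TGFB2-202 held 90.1% (87.0 to 92.8) of its gene with PMA, against 79.7% (77.2 to 82.0) in control. The longer TGFB2-201, which has 8 exons where TGFB2-202 has 7, held 5.54% (3.65 to 8.15) with PMA, against 11.0% (9.23 to 12.9) in control. TGFB2-203, annotated as a processed transcript, held 15.7% (12.6 to 19.2) with FSK and 4.36% (2.58 to 6.56) with PMA, against 9.37% (7.77 to 11.2) in control. For SMAD6, the transcript annotated for nonsense-mediated decay, SMAD6-202, held 7.91% (6.72 to 9.25) with FSH, 16.6% (14.97 to 18.3) with SC79 and 15.9% (13.7 to 18.3) with PMA, against 13.1% (11.6 to 14.6) in control. The division of reads between transcripts of a gene is an estimate whose error is not in these intervals.

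**Figure D3:**
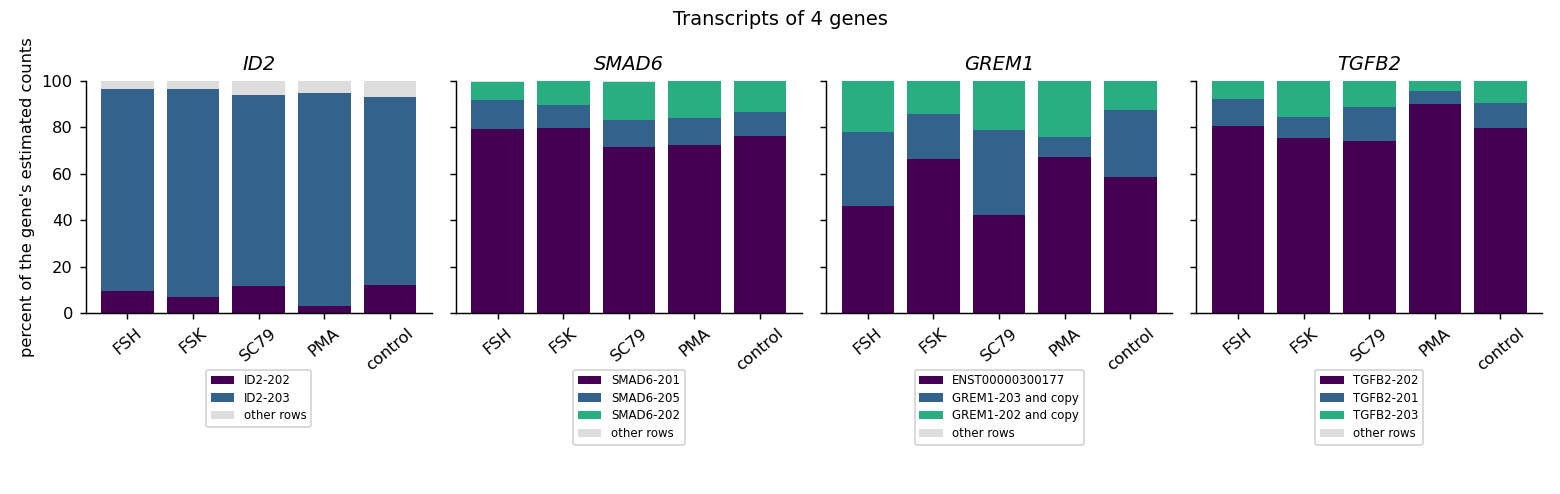
Percent of each gene's estimated counts (y axis, 0 to 100) held by its transcripts in the FSH, FSK, SC79, PMA and control libraries for ID2, SMAD6, GREM1 and TGFB2, as stacked bars, with transcripts under 10% in all libraries pooled as other rows. "And copy" means that an entry with the same values was added. ID2-203 holds between 80.9% and 91.6% of ID2, and TGFB2-202 holds its largest share, 90.1%, with PMA.

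The authors' deposited table gives 1 comparison per transcript and treatment. For ID2-203 with FSK the authors' deposited table has a log2 fold change of 2.35, a p-value of 0.0334 and an adjusted p-value of 0.449. For the main GREM1 transcript the authors' deposited table has 2.50 with PMA, at an adjusted p-value of 0.386, and 1.67 with FSK, at 0.905. For ID4-201 it has 1.12 with FSK and -1.37 with PMA, both at an adjusted p-value of 1 in the authors' deposited table. No main transcript of the 9 genes reached an adjusted p-value of 0.05 in the authors' deposited table. The entries that did were 2 of 40 transcripts with FSH, 2 with FSK, 3 with SC79 and 2 with PMA in the authors' deposited table. They were SMAD7-202 and SMAD7-205 each time, and BAMBI-202 with SC79. Each is listed at 0 in a library of its comparison and holds at most 2.13% of its gene in any library. SMAD7-202, for instance, had 94.6 scaled counts with FSH, 52.0 with FSK, 31 with SC79 and 42.7 with PMA. In control it is listed at 0.

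To place the members, 97 other genes of the BMP and TGF-beta pathways were listed by role. With FSH and with SC79, 0 of the 68 compared in each case lay at least 2-fold from control. With FSK 6 of 69 lay past 2-fold upward and 8 downward, and with PMA 5 of 67 lay past 2-fold upward and 6 downward. Over all genes the shares were 4.13% upward and 5.43% downward with FSK and 3.64% upward and 3.62% downward with PMA, and the counts by role below are to be read against them. The medians of the log2 ratios over the lists together were -0.04 with FSK and 0.01 with PMA.

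Of 20 ligand genes, 13 were under 100 scaled counts in both the FSK and control libraries. BMP4 was the most abundant BMP transcript listed, with 3017 scaled counts for FSK and 4894 for PMA, against 4531 in control. BMP3 was the ligand at least 2-fold higher with FSK, at 318 scaled counts, against 43.3 in control. BMP15, a ligand of oocytes, is listed at 0 in all libraries.

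Of 16 receptors and coreceptors compared, 3 were higher and 2 lower with FSK. TGFBR1, the type I receptor of TGF-beta, had 14096 scaled counts in the FSK library, against 4253 in control, and TGFBR2, its type II partner, had 10988 with FSK, against 4450 in control. AMHR2, the receptor of anti-Müllerian hormone, had 220 with FSK, against 98.2 in control. RGMB, a BMP coreceptor, was lower with FSK at 2591, against 5521 in control, and so was RGMA, at a log2 ratio of -1.10. The BMP receptors BMPR1A and BMPR2 stayed within 1.2-fold of control in both treatments, with log2 ratios of 0.10 and -0.16 for FSK and -0.14 and 0.18 for PMA. BMPR1B, another type I receptor, had 125.9 scaled counts with FSK and 78.5 with PMA, against 125.8 in control, and its fold with PMA was 0.622 (0.465 to 0.826). With PMA 0 of the 15 receptors compared lay at least 2-fold from control. AMHR2 was not among these 15, since its higher library was under 100 scaled counts, and it had 15.8 with PMA, against 98.2 in control, 0.161-fold (0.0889 to 0.274). RGMB had 10881 scaled counts with PMA and 2591 with FSK, a log2 ratio of 2.07.

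None of the 6 receptor-regulated and common SMADs lay at least 2-fold from control in any treatment. SMAD3, which carries TGF-beta signals, had 16744 scaled counts in the FSK library, against 32525 in control, a log2 ratio of -0.96. SMAD9 had 601 with PMA, against 1183 in control, a log2 ratio of -0.98. SMAD1 and SMAD5, the BMP-regulated SMADs named above, had FSK log2 ratios of -0.30 and -0.32 and PMA log2 ratios of 0.27 and -0.35.

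Of the secreted antagonists, 8 of 16 could be compared. Follistatin (FST), which binds activins, had 3514 scaled counts in the FSK library, against 1147 in control. NBL1, a relative of the gremlins, had 13494 with PMA, against 6568 in control. Noggin (NOG) stayed at 42.7 scaled counts or fewer in every library.

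Among the intracellular inhibitors, 1 of 12 was at least 2-fold from control with FSK and 0 with PMA. TOB1, an antiproliferative protein that represses BMP signals through SMADs, had 9170 scaled counts in the FSK library, against 1450 in control. The ubiquitin ligases SMURF2 and NEDD4L had FSK log2 ratios of -0.97 and -0.99.

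The E proteins that ID proteins bind were abundant. TCF3, TCF4 and TCF12 had FSK log2 ratios of -0.51, 0.31 and -0.20 and PMA log2 ratios of -0.20, -0.09 and -0.08. HES1, a helix-loop-helix repressor, had 199.8 scaled counts with FSK and 224 with PMA, against 1043 in control. HEY1, a related repressor, had 37.7 with FSK and 295 with PMA, against 130.4 in control.

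Of the other target genes, 0 of 15 were higher and 4 lower with FSK, and 3 were higher and 5 lower with PMA, beside shares over all genes of 4.13% higher and 5.43% lower with FSK and 3.64% higher and 3.62% lower with PMA. ATOH8, a helix-loop-helix target of BMPs, had 1211 scaled counts with PMA, against 2925 in control, a log2 ratio of -1.27. TAGLN was lower with both FSK and PMA, at 13152 with FSK and 7330 with PMA, against 36977 in control, and so was SNAI2, at 1155 and 796, against 2711 in control. DLX5 was near the 2-fold line in both, at log2 ratios of -1.003 with FSK and -1.10 with PMA. VEGFA and JUNB were higher with PMA, at log2 ratios of 1.81 and 1.07, and COL1A1 was lower, at -1.47.

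**Figure D4:**
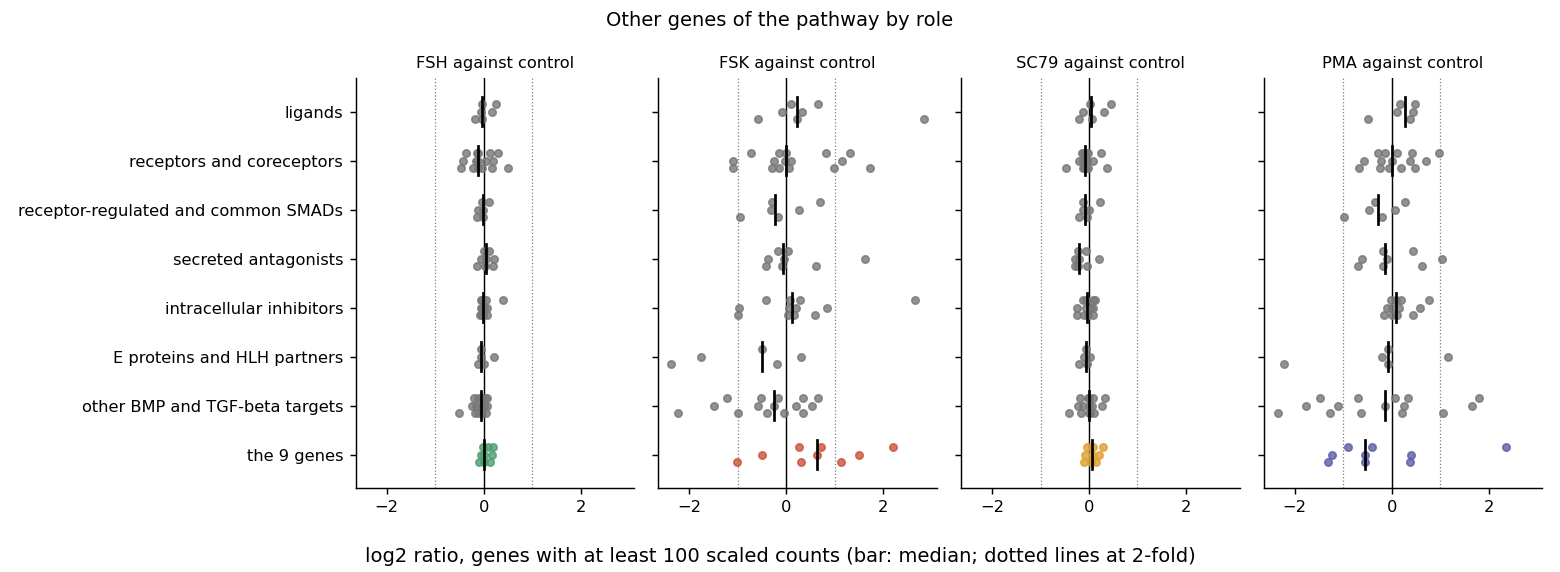
Log2 ratios to control (x axis) of single genes (points; minimum of 100 scaled counts in the higher library) by role (y axis), for FSH, FSK, SC79 and PMA, with black bars for the median of each role and dotted lines at 2-fold. The bottom row holds the 9 genes, whose medians are 0.63 with FSK and -0.54 with PMA.

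Genes with the most similar pattern over the 4 log2 ratios to control were sought among 12615 genes by Euclidean distance in log2 units. Nearest to ID2 was S1PR3, a sphingosine-1-phosphate receptor, at 0.12, with log2 ratios of 2.26 for FSK and -0.48 for PMA. SERPINE2 and PLEKHA7 followed at 0.32 and 0.33. Nearest to ID4 were NXPH2 at 0.26, LIPG at 0.27 and SUCNR1 at 0.27. For GREM1 the nearest were NRG1 at 0.33, SLITRK4 at 0.43 and PLPP3 at 0.47, and for TGFB2 they were MTCL1 at 0.12, LDLRAD4 at 0.12 and LZTS1 at 0.13. These ratios share the control library, so the likeness is over 5 libraries.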

How the data were processed

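Poly(A) RNA of KGN cells was sequenced as 1 library per group. Trimmomatic, kallisto and edgeR are named, without versions, in the submitters' processing notes; of the transcript index and genome build, the sources used here give neither. The authors deposited estimated counts per transcript, per the file headers, which do not say what was filtered. The authors also deposited a normalized signal, found here to equal the estimated counts times 1 constant per library (0.998 for FSH, 1.03 for FSK, 0.975 for SC79, 0.934 for PMA and 1.02 for control). The authors' deposited table of comparisons gives log2 fold changes with p-values and adjusted p-values per transcript; its dispersion is not given in the sources used here. LH appears only in that table. Of the sample columns, 0 stayed without a group.

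Of 179973 transcripts, 91.0% had an identifier in GENCODE 29, the source of coordinates (GRCh38), lengths and transcript names. Another 303 had no gene name and held at most 0.0680% of counts. Estimated counts were summed per gene name and scaled with TMM in edgeR 4.0.16 (R 4.3.3), with factors between 0.976 for FSK and 1.03 for PMA. The sums were rounded to whole numbers only to obtain the factors and the intervals. With 1 library per group no test across genes was run: a gene was called at 2-fold or more with a minimum of 100 scaled counts in the higher library, on log2(scaled count + 1). Intervals are exact conditional binomial (Clopper-Pearson) at 95% and cover counting error alone, because each group has 1 library. These reads carry no molecular identifiers and so may repeat a molecule, which the intervals do not allow for. The precision of a ratio follows from library totals of 50218950 to 58811821 counts.

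The members and the role lists were chosen with earlier results of these data known. All members are named, and of the role lists those past the size rule, at most the 3 highest and 3 lowest per role, and genes that show a role to be low. SMAD, receptor, E-protein and other genes named below 2-fold were chosen after their values were seen. Some genes of the role lists are counted but not reported here by name. Promoters are RefSeq windows on GRCh38.p14. Alternatives were DESeq2 1.42.0 size factors, library totals, the authors' signal, protein-coding transcripts only, the most abundant transcript alone, other pseudocounts, other minimums and 1.5-fold. Counting entries with the same values once was added after the data were seen. Other calculations used matplotlib 3.10.9, scipy 1.17.1, pandas 2.3.3 and numpy 2.4.6 under Python 3.11.15.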

Additional observations from a re-analysis of the deposited data

Results flagged for a closer look

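The authors' deposited table holds a comparison of LH (luteinising hormone) with control that no library used here covers. In the authors' deposited table SMAD7-202, annotated as a retained intron, has a log2 fold change of 10.7 for LH at an adjusted p-value of 0.000119. SMAD7-205, a processed transcript, has 9.27 at an adjusted p-value of 0.00125 in the authors' deposited table. Both are listed at 0 in the control library and above 0 in the other 4 libraries. They drew attention because they stand in data outside the comparisons reported here. The main SMAD7 transcript, SMAD7-201, has 0.30 for LH in the authors' deposited table, at an adjusted p-value of 1.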

How the results depend on the processing

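No paired analysis was possible because each group has 1 library without a replicate number, and no replicate could be left out. Over 8 alternatives, 244 of 288 member log2 ratios to control stayed within their counting interval and 44 moved, 33 of them on the authors' normalized signal. The constants of that signal do not even out the library totals. Control had the highest total and a constant of 1.02, and SC79 had the lowest total and a constant of 0.975. On that signal the median log2 ratio of all genes was -0.16 with FSH, -0.16 with FSK, -0.28 with SC79 and -0.25 with PMA. On it ID4 with FSK was under 2-fold at 0.95 and SMAD6 with PMA past 2-fold at -1.14; no other member call against control changed under these 8. At 1.5-fold in place of 2-fold, 5 members differed between FSK and FSH and 7 between PMA and FSK, in place of 2 and 4, and 6 differed from control with FSK and 4 with PMA, in place of 4 and 3. Of the other pathway genes, dropping the minimum of 100 counts gave 1 with FSH, 6 with SC79, 22 with FSK and 18 with PMA. The 1.5-fold rule gave 27 with FSK and 22 with PMA, where the rule used gave 0, 0, 14 and 11. The TGFB2 ratio of FSK to FSH passed 2-fold at -1.04 with protein-coding transcripts only and at -1.01 with the most abundant transcript alone. Signs turned in 16 of the 288 pairs of ratio and alternative, all of them for FSH or SC79.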

Other observations

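In the authors' deposited table, the main transcripts of the members had LH log2 fold changes of 1.40 for GREM1, 0.72 for ID1, 0.24 for ID2-203, -0.58 for ID4, -1.14 for ID3 and -1.52 for TGFB2. None of these had an adjusted p-value under 0.925 in the authors' deposited table.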
